A study of Mus musculus with 16 samples.

Results

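The Polycomb and H3K27 regulators described here are 9 genes, *Kdm6b*, *Ezh1*, *Ezh2*, *Eed*, *Suz12*, *Asxl1*, *Asxl2*, *Bap1* and *Bmi1*, chosen by symbol among the 27998 genes counted in each library. They were read in single cells of lineage-negative (Lin-) mouse bone marrow, which is depleted of mature blood cells. IL1β, an inflammatory cytokine, was injected intraperitoneally at 500 ng per mouse and day for 5 weeks, or vehicle was given. WT mice were Tet2fl/fl, and *Tet2*-KO mice carried Vav-Cre as well, which deletes *Tet2* throughout the blood system, so that WT mice lacked the Cre. All mice were C57BL/6 and 6 to 12 weeks old by the labels, with 4 mice in each of the 4 groups of genotype and treatment. Hashtagged cells of 2 mice of 1 group were pooled in each of 8 libraries, so that each group rests on 2 libraries and the 2 mice of a library share any effect of it.

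Polycomb repressive complexes keep developmental genes silent through marks on histone tails. PRC2 methylates lysine 27 of histone H3 (H3K27), with *Ezh2* or its paralog *Ezh1* as the catalytic subunit and *Eed* and *Suz12* as the core partners that the enzyme needs. *Kdm6b* encodes the demethylase JMJD3, which removes this methylation and is an early response gene of inflammatory signaling. *Bmi1* encodes a subunit of PRC1, the complex that ubiquitinates histone H2A and is known for its part in stem cell self-renewal, while *Bap1* encodes the deubiquitinase that removes this mark, with *Asxl1* or *Asxl2* as its partner. *Asxl1*, *Ezh2* and *Tet2* are among the genes mutated in human myeloid disease.

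Of 121405 barcodes deposited, 94917 passed the limits of quality, and 57896 of these were assigned to a mouse by hashtag. Pools held 8569 to 14573 of these cells at a median of 4436 to 7363 UMIs per cell, and 2128 of the 94917 cells (2.24%) carried a barcode that another library also held. UMIs summed over the assigned cells of a mouse ranged from 4388604 to 44152768. In both pools that held a female and a male mouse, some cells carried transcripts of the other sex, up to 18.5% of the cells with a sex-linked UMI in 1 mouse, so that cells of such a pair were partly mixed within their group. *Tet2*, the targeted gene, had 36.4 to 77.9 CPM (UMIs of a gene scaled to a common total of UMIs) in the *Tet2*-KO mice and 31.0 to 61.7 in the WT mice. These libraries count the 3′ end of transcripts, so this level does not check a deletion elsewhere in the gene.

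Cells were sorted into classes by marker genes that include none of the 9 regulators, and 15 of 20 classes held enough mice for a test. The HSC-like class held 2481 cells, 17 to 336 per mouse, and all 7 of its markers (*Hlf*, *Mecom*, *Mllt3*, *Gcnt2*, *Procr*, *Fgd5* and *Angpt1*) were higher there than in any other class. The gate itself favors this, since detection of these markers separated HSC-like from multipotent progenitor-like cells. Multipotent progenitor-like (MPP-like) cells met this for 3 of 5 markers and megakaryocyte-erythroid progenitor-like (MEP-like) cells for 2 of 4. None of the 4 markers of the immature myeloid progenitor-like (IMP-like) class was highest in it, and the class is named here only as a gate on *Mpo*, *Cd34*, *Cebpa* and *Plac8* with *Elane* and *Ms4a3* low. Of all cells, 17.6% entered no class and 12.9% lay close to the border between classes.

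In GRCm38, the PRC2 core genes lie apart from each other, *Ezh1* at chr11:101191115-101226463 (minus strand), *Ezh2* at chr6:47530139-47595341 (minus strand), *Eed* at chr7:89954654-89980983 (minus strand) and *Suz12* at chr11:79993106-80034123 (plus strand). *Kdm6b* lies at chr11:69398508-69413675 (minus strand). The genes of H2A ubiquitination are *Asxl1* at chr2:153345829-153404007 (plus strand), *Asxl2* at chr12:3426857-3506852 (plus strand), *Bap1* at chr14:31251450-31259944 (plus strand) and *Bmi1* at chr2:18677018-18686629 (plus strand). The promoters of the PRC2 subunits whose RNA changed most often with IL1β or with cycling are shown first, from 250 bases before to 50 bases after the RefSeq start of each gene in GRCm38.p6. Capitals mark E2F motifs (TTTGGCGC or TTTCCCGC) and CCAAT boxes (CCAAT, or ATTGG on the other strand), which were searched on both strands because E2F and NF-Y factors are known to drive genes of the cell cycle.
Ezh1 (chr11:101226414-101226713, minus strand): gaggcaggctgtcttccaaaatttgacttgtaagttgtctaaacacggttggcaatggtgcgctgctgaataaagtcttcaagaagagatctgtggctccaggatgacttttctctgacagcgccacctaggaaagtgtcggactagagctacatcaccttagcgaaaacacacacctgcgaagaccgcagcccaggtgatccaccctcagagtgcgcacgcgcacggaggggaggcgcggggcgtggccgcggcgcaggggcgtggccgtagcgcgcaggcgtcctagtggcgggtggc
Ezh2 (chr6:47594981-47595280, minus strand): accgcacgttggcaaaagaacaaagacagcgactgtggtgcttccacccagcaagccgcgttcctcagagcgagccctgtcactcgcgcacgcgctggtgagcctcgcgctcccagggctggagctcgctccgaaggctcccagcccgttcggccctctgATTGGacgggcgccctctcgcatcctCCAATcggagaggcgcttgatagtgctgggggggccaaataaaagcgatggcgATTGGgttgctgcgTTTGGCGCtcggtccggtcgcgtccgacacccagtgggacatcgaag
Suz12 (chr11:79992856-79993155, plus strand): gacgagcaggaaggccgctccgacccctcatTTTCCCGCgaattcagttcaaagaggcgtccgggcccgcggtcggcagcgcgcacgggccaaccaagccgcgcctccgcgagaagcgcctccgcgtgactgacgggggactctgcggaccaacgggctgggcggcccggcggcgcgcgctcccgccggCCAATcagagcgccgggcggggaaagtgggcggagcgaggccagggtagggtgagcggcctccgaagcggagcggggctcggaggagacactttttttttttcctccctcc
An E2F motif stood in the *Ezh2* and the *Suz12* window and in none of the other 6 windows read, and 1.56% of 32851 promoters of the same length held one. A CCAAT box stood in *Ezh2* (3 times), *Suz12* and *Eed*, so in 3 of the 8 windows, a share near the 37.4% of all promoters. No member's window held an AP-1 motif (TGACTCA or TGAGTCA, in 5.2% of all promoters) or a cAMP response element (TGACGTCA, in 1.79%), while an E-box (CACGTG, in 7.15%) stood in *Asxl2*, *Bap1* and *Bmi1*. The windows of *Ezh1*, *Ezh2* and *Suz12* had a GC content of 59.3%, 64.3% and 71.0%, where the median of all promoters was 52.7%. These matches are descriptions of letters and not of bound sites, and *Kdm6b* had no entry in the promoter table.

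The level of a member in a class is given as CPM of the mouse's UMIs in the class, averaged over the mice of all groups unless a group is named. Over vehicle and IL1β mice together, *Kdm6b* stood highest in HSC-like cells at 117 ± 74.1 CPM (SD, n = 16 mice) and next in MPP-like cells at 97.4 ± 63.3 (n = 16), with the lowest level in granulocyte progenitor-like (GranP-like) cells at 13.8 ± 3.55 (n = 16), an 8.51-fold range. The step from HSC-like to MPP-like cells was 0.32 on the log2(CPM + 1) scale, in this direction in 14 of 16 mice (exact sign-flip permutation test, two-sided, p = 0.00165, adjusted p = 0.0415 over 126 neighbouring pairs of all members). Basophil-like (68.2 ± 21.1 CPM) and neutrophil-like cells (63.1 ± 16.6 CPM, n = 15) followed, and neither step passed the test. Erythroblast-like cells stood next to last with 15.7 ± 7.19 CPM (n = 14). In the 4 WT vehicle mice alone HSC-like cells were not the highest class, since *Kdm6b* averaged 62.4 ± 1.66 CPM in basophil-like, 59.5 ± 25.7 in neutrophil-like, 57.6 ± 17.2 in HSC-like and 46.2 ± 20.8 in MPP-like cells. GranP-like cells had the least in these mice as well (11.9 ± 1.42 CPM, n = 4), a 5.23-fold range.

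*Ezh2* followed another order, with its highest levels in the erythroid classes. It reached 274 ± 34.9 CPM in erythroblast-like (n = 14) and 263 ± 23.3 CPM in colony-forming unit erythroid-like (CFU-E-like) cells (n = 16), both in plain CPM. HSC-like (192 ± 46.7 CPM), IMP-like (178 ± 10.1) and GranP-like cells (136 ± 13.3) stood lower in the order, followed by neutrophil-like cells at 108 ± 27.1 CPM (n = 15). Plasma cell-like cells had the least, 40.7 ± 16.3 CPM, which was below neutrophil-like cells in 15 of 15 mice (adjusted p = 0.00256 by the same exact test). *Ezh1*, which is known to serve in cells that do not divide, went from 33.3 ± 14.5 CPM in NK/T cell-like cells (n = 14) to 10.1 ± 2.64 in CFU-E-like cells (n = 16), and none of its 14 neighbouring steps passed the test.

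**Figure D1:**
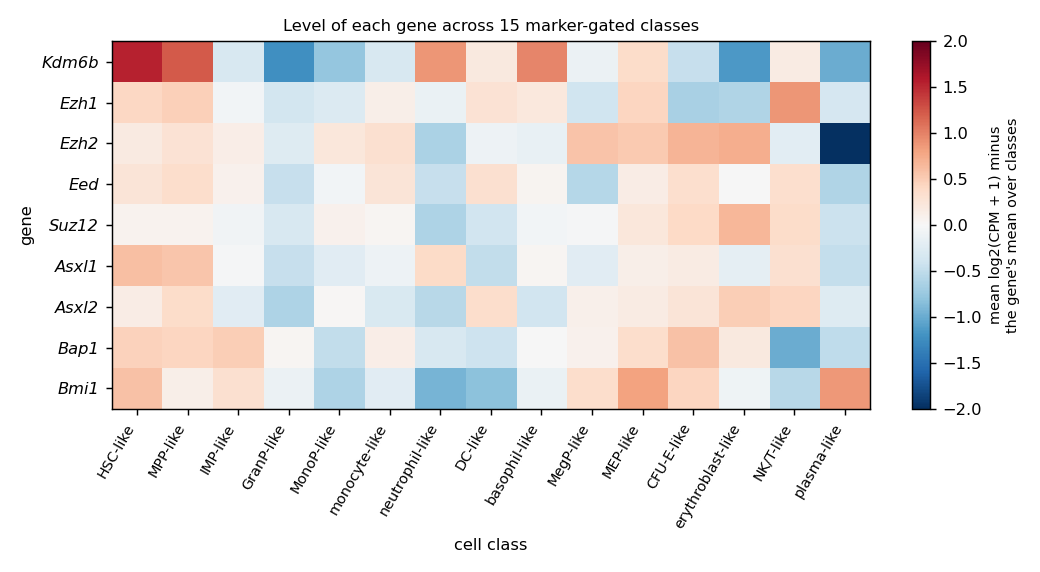
Mean log2(CPM + 1) of each gene in 15 classes over vehicle and IL1β mice together, less the gene's own mean over the classes, with red above and blue below it and colors ending at 2 in either direction. *Kdm6b* is darkest red in HSC-like cells, where it averaged 117 CPM, and *Ezh2* is darkest blue in plasma cell-like cells, where it averaged 40.7 CPM.

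Over the mice of all groups *Ezh2* had a 6.72-fold range beside the 8.51-fold range of *Kdm6b*, and the 6 members other than these and *Ezh1* ran between 2.03-fold for *Eed* and 3.55-fold for *Bmi1* from the lowest to the highest class. In WT vehicle mice the range of *Ezh2* was 9.21-fold, wider than that of *Kdm6b*. Its low end was 29.3 ± 26.2 CPM in plasma cell-like cells (n = 4), with 132 UMIs over the mice of all groups. The ranges of *Bap1* (5.02-fold) and *Bmi1* (4.42-fold) in WT vehicle mice rested on low ends with few UMIs as well. These were 7.02 ± 12.2 CPM of *Bap1* in NK/T cell-like cells (n = 3, 36 UMIs over the mice of all groups) and 8.89 ± 9.36 CPM of *Bmi1* in dendritic cell-like cells (n = 3, 21 UMIs). Over the mice of all groups the 2 ranges were 2.12-fold and 3.55-fold. *Suz12* ran parallel to *Ezh2* at the erythroid end, with 244 ± 54.8 CPM in erythroblast-like (n = 14) and 205 ± 45.4 CPM in CFU-E-like cells (n = 16), a step found in 14 of 14 mice (adjusted p = 0.00385). It was also higher in IMP-like than in GranP-like cells in 16 of 16 mice, by 0.24 on the log2 scale (adjusted p = 0.00256). *Eed* was higher in monocyte progenitor-like than in GranP-like cells in 15 of 15 mice, by 0.41 (adjusted p = 0.00256). In the order of mean log2(CPM + 1), *Asxl1* stood first in HSC-like (65.5 ± 22.1 CPM) and MPP-like cells (63.1 ± 18.1), *Asxl2* in erythroblast-like cells (105 ± 21.2) and *Bmi1* in plasma cell-like cells (33.1 ± 17.5), each in plain CPM and with no neighbouring step past the test. *Bap1*, at 33.8 ± 5.93 CPM in CFU-E-like cells, had no such step either. Of the 126 steps between neighbours in these orders, 5 passed in all, and for the others a difference beyond the spread between mice was not shown. This count ran from 4 to 11 without 1 mouse and was larger with either other hashtag call. With WT vehicle mice alone no step passed, since 4 mice cannot go below p = 0.125 in this exact test.

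The members split by whether a cell was cycling. Within a class, cells with UMIs of at least 2 of 12 cycling genes (such as *Mki67* and *Top2a*) were compared with the other cells of the same mouse, on the log2(CPM + 1) scale. The cut rests on detection and can follow the depth of a cell, which was not compared. Among the mice compared, it set 5578 cycling against 341 other cells in CFU-E-like, 7979 against 987 in GranP-like, 7049 against 2625 in IMP-like and 935 against 1529 in HSC-like cells. *Ezh2* was higher in cycling cells in 9 of 14 classes and *Suz12* in 7, while *Kdm6b* was lower in 9 and *Ezh1* in 3 (exact sign-flip permutation test, two-sided, adjusted over 126 tests). NK/T cell-like and plasma cell-like cells could not pass for any gene. Only 5 mice were compared there, with which this exact test cannot go below p = 0.0625. *Eed* was higher in 2 classes and *Bmi1* in 1, *Asxl2* was lower in 1, and no class passed for *Asxl1* or *Bap1*. In all, 19 of 126 pairs of a member and a class were higher and 13 lower. These p-values were adjusted over the members alone. To set them beside all genes, the same exact test was run on every gene that passed the low-count filter and adjusted over all genes of the class, and 27 of 103 member pairs (26.2%) then passed, beside 15.6% of all pairs. Of these 15 were higher (14.6%, beside 10.2% of all pairs) and 12 lower (11.7%, beside 5.33%). *Kdm6b* was lower in 8 classes in this count and *Ezh1* in 3, *Ezh2* was higher in 7 and *Suz12* in 6, *Eed* was higher in 2, *Asxl2* was lower in 1, and no class passed for *Bmi1*.

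In HSC-like cells *Ezh2* had 263 CPM in cycling and 123 CPM in other cells, a difference of 1.09 ± 0.31 (SD) found in 15 of 15 mice (adjusted p = 0.00128). *Suz12* had 199 and 128 CPM there, a difference of 0.70 ± 0.46 in 15 of 15 mice (adjusted p = 0.00128). *Kdm6b* went the other way with 94.7 and 157 CPM, a difference of -0.63 ± 0.50 in 13 of 15 mice (adjusted p = 0.00362). The same opposition stood in IMP-like cells, where *Kdm6b* differed by -1.05 ± 0.33 and *Ezh2* by 0.47 ± 0.20, each in 16 of 16 mice (adjusted p = 0.00128 for both). *Ezh1* was lower in cycling neutrophil-like cells by 1.09 (12.2 against 28.1 CPM, 13 of 14 mice, adjusted p = 0.00355), the class in which *Ezh2* was higher by 1.63 in 14 of 14 mice (adjusted p = 0.00192).

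**Figure D2:**
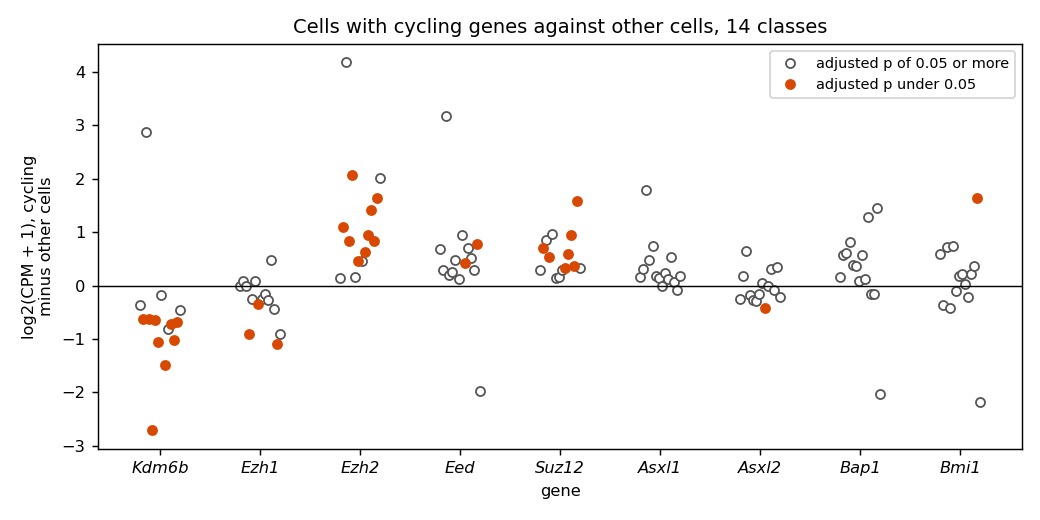
Difference in log2(CPM + 1) between cycling and other cells of the same mouse, averaged over mice, with 1 point per class for each of 9 genes and filled points for an adjusted p under 0.05. The filled points of *Kdm6b* (9) and *Ezh1* (3) lie below 0 and those of *Ezh2* (9) and *Suz12* (7) lie above it.

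The balance of the paralogous enzymes, the log2(CPM + 1) of *Ezh2* less that of *Ezh1* in the same mouse and class, does not depend on the scaling of the library apart from the pseudocount. It was 3.03 ± 0.99 (SD, n = 16) in HSC-like cells. It was higher by 1.57 in CFU-E-like cells in 15 of 16 mice (exact sign-flip permutation test, adjusted p = 0.000854), by 1.71 in erythroblast-like cells in 13 of 14 mice (adjusted p = 0.00427) and by 1.21 in megakaryocyte progenitor-like (MegP-like) cells in 14 of 16 mice (adjusted p = 0.00484). Plasma cell-like cells stood below HSC-like cells by 1.70 in 15 of 16 mice (adjusted p = 0.00801). The other 10 classes did not pass against HSC-like cells.

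The next comparison asked which members changed with 5 weeks of IL1β in each genotype. UMIs were summed per mouse and class and tested with edgeR, and levels are given from here on as CPM of the TMM-scaled library size. Of 135 pairs of a member and a class, 109 passed the filter on low counts, so 26 pairs have no test. In WT mice 7 of the 109 pairs (6.42%) passed an adjusted p of 0.05 and all were higher with IL1β, beside 10.5% of all 100635 pairs of a gene and a class (4.38% higher and 6.07% lower). In *Tet2*-KO mice 9 pairs (8.26%) passed, 7 higher and 2 lower, beside 12.3% of all pairs (5.46% higher and 6.85% lower). The share of members called in either direction was thus below that of all genes in both genotypes. The share called higher was 6.42% in each, beside 4.38% of all pairs in WT and a near 5.46% in *Tet2*-KO. Of these rises 4 in WT and 3 in *Tet2*-KO were of *Suz12* alone, in classes of the same mice. The median log2 fold change of the members was 0.16 in both, against 0.02 in WT and 0.02 in *Tet2*-KO over all pairs.

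The calls of small changes depended on the scaling. Without TMM, by library size alone, 16 pairs passed in WT (14.7%, all higher, the 7 above included), beside 12.7% of all pairs (9.02% higher). In *Tet2*-KO 14 passed (12.8%, all higher, 7 of the 9 above included), beside 13.6% of all pairs (9.03% higher). The median of all genes in a class moved by up to 0.17 in WT and 0.14 in *Tet2*-KO. The rises with IL1β called here passed under both scalings, and both falls, of *Ezh2* and *Eed* in *Tet2*-KO IMP-like cells, passed only with TMM (-0.08, adjusted p = 0.376, and -0.11, adjusted p = 0.337, without it).

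The edgeR fits and the permutations treated the 2 mice of a pool as independent. In an alternative fit all cells of a pool other than hashtag doublets were summed, with the 8 pools as replicates. This took in cells without a hashtag call (33083 in all), so the cells differed from the main fit as well as the replicates. In it 2 of 129 member pairs passed in WT (1.55%) and 4 in *Tet2*-KO (3.1%), all higher, beside 3.99% (1.54% higher) and 4.29% (1.97% higher) of all pairs. The call of *Kdm6b* in HSC-like cells was kept in WT (1.18, adjusted p = 0.0157) and in *Tet2*-KO (1.47, adjusted p = 0.000617). The *Tet2*-KO calls of *Kdm6b* in MPP-like cells (1.29, adjusted p = 0.0306) and of *Ezh1* in IMP-like (0.60, adjusted p = 0.0235) and GranP-like cells (0.68, adjusted p = 0.0272) were kept as well, and *Kdm6b* in WT MPP-like cells passed (1.49, adjusted p = 0.0296). All calls of *Suz12* were lost, in CFU-E-like (0.40, adjusted p = 0.0553 in WT and 0.34, adjusted p = 0.12 in *Tet2*-KO), IMP-like (0.37, adjusted p = 0.0657 and 0.26, adjusted p = 0.132), GranP-like (0.38, adjusted p = 0.103 and 0.30, adjusted p = 0.139) and WT NK/T cell-like cells. The calls of *Ezh1* in WT IMP-like cells (0.24, adjusted p = 0.331), of *Bap1* in WT GranP-like cells (0.28, adjusted p = 0.222) and of *Ezh2* (-0.23, adjusted p = 0.134) and *Eed* (-0.23, adjusted p = 0.196) in *Tet2*-KO IMP-like cells were lost too.

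**Figure D3:**
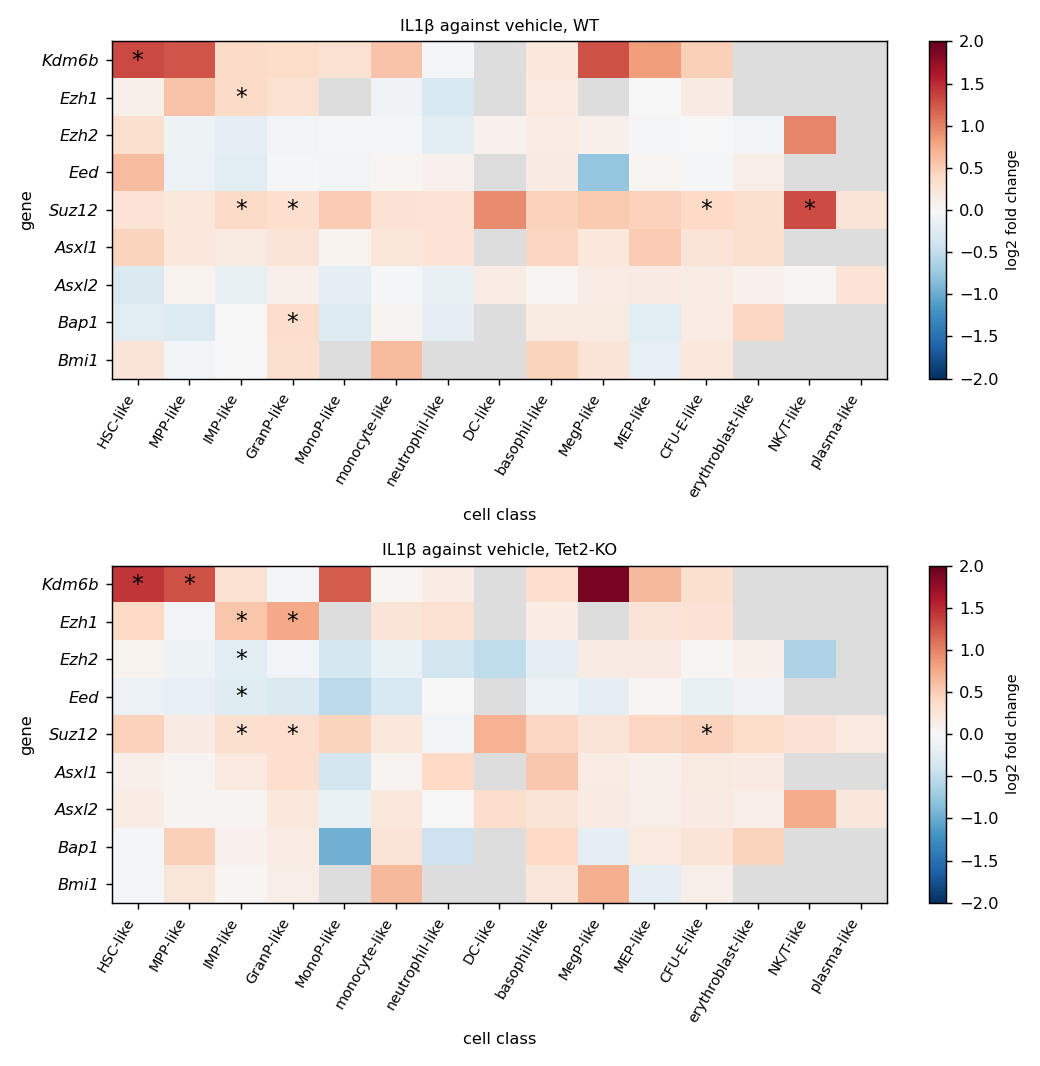
Log2 fold change of each gene with IL1β against vehicle in 15 classes, WT above and *Tet2*-KO below, with a star for an adjusted p under 0.05 (edgeR) and gray for pairs under the filter on low counts. Stars stand on 7 pairs in WT and 9 in *Tet2*-KO, with *Kdm6b* in HSC-like cells, *Ezh1* in IMP-like cells and *Suz12* in IMP-like, GranP-like and CFU-E-like cells starred in both.

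*Kdm6b* in HSC-like cells was the change of largest size that passed in both genotypes. In TMM-scaled CPM it stood at 80.3, 63.1, 56.0 and 36.9 in the WT vehicle mice and at 88.8, 160, 132 and 226 in the WT IL1β mice. In *Tet2*-KO mice it stood at 107, 60.9, 37.8 and 66.8 with vehicle and at 275, 163, 229 and 119.5 with IL1β. Every IL1β mouse was above every vehicle mouse of its genotype, and the *Tet2*-KO vehicle mouse with 107 CPM was the highest of the 8 vehicle mice and above the lowest WT IL1β mouse. The values rest on 3 to 64 UMIs of *Kdm6b* per mouse with vehicle and 21 to 213 with IL1β, and the mouse with 3 UMIs had 17 HSC-like cells.

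The rise was 2.50-fold in WT (log2 1.32, SE 0.33, adjusted p = 0.0117) and 2.68-fold in *Tet2*-KO (log2 1.42, SE 0.26, adjusted p = 0.00068). *Kdm6b* was the only one of the 9 members that passed in HSC-like cells in either genotype, where 7.03% of all genes passed in WT and 12.1% in *Tet2*-KO. The difference between these rises was 0.10 (SE 0.43, adjusted p = 1.00), an error wide enough that a difference of this kind was not detectable with 4 mice per group. The *Tet2*-KO rise passed in all 16 fits without 1 mouse, at 1.18 to 1.78. The WT rise missed the threshold without WT vehicle mouse 3 (1.37, adjusted p = 0.0503), without WT vehicle mouse 4 (1.06, adjusted p = 0.105) and under stricter gates (1.09, adjusted p = 0.139).

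**Figure D4:**
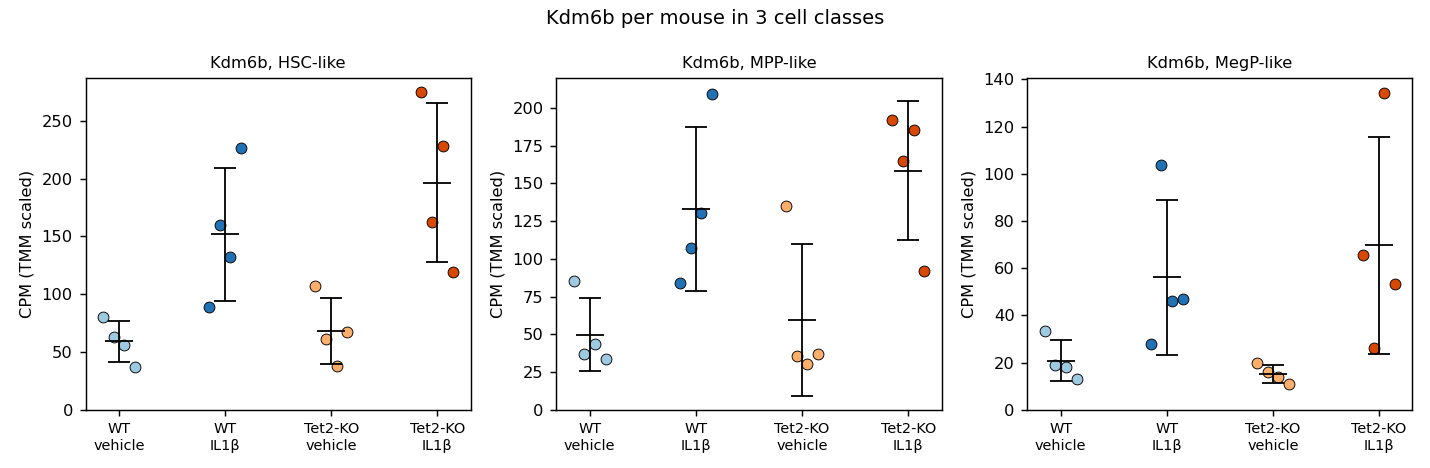
*Kdm6b* in TMM-scaled CPM per mouse in HSC-like, MPP-like and MegP-like cells, with 1 point per mouse and the mean ± SD of 4 mice in black. In HSC-like cells the vehicle mice lie between 36.9 and 107 and the IL1β mice between 88.8 and 275.

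Other measures moved with *Kdm6b* in HSC-like cells. The summed level of the 12 cycling genes was 1431 to 2439 CPM in WT vehicle and 2470 to 3365 CPM in WT IL1β mice, without overlap, and it overlapped in *Tet2*-KO (869 to 2706 and 1444 to 3019 CPM). The 6 markers of monocyte-like cells summed to 84.2 to 116 CPM in WT vehicle and 204 to 280 CPM in WT IL1β mice, where no marker was at 0 in all mice, and to 151 to 243 and 169 to 259 CPM in *Tet2*-KO. The 6 markers of basophil-like cells summed to 63.1 to 145 CPM in WT vehicle and 183 to 597 CPM in WT IL1β mice, and overlapped in *Tet2*-KO. Of 20 marker lists, 4 did not overlap between vehicle and IL1β mice in WT and 4 in *Tet2*-KO, each higher with IL1β. In WT the other two were those of MEP-like (189 to 281 and 295 to 404 CPM) and MegP-like cells (42.1 to 163 and 185 to 374). In *Tet2*-KO they were those of MEP-like (191 to 309 and 345 to 376 CPM), MPP-like (2458 to 2719 and 3040 to 3808), IMP-like (1724 to 2018 and 2046 to 2373) and eosinophil-like cells (0 to 7.86 and 10.4 to 23.2). Monocyte-like cells themselves averaged 30.2 ± 16.4 and basophil-like cells 68.2 ± 21.1 plain CPM of *Kdm6b* over the mice of all groups. Cycling HSC-like cells had less of it than the others. The part of these in the rise was not tested.

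Part of the immediate early genes, which many signals induce quickly, passed in the same cells. Of 10 listed, all 10 had a positive log2 fold change with IL1β in WT HSC-like cells (0.38 to 2.96) and 5 passed, *Junb*, *Zfp36*, *Dusp1*, *Btg2* and *Nr4a1*, beside 7.03% of all genes. In *Tet2*-KO 8 of 10 were positive (-0.48 to 1.83) and 2 passed, *Junb* and *Zfp36*, beside 12.1% of all genes, while *Fos* (-0.33) and *Fosb* (-0.48) had negative values. With vehicle all 10 had higher values in *Tet2*-KO than in WT (log2 0.81 to 1.76), with 8 at an unadjusted p under 0.05. For the interaction 0 had such a p. Of all 8021 genes in HSC-like cells, 371 had such a p with vehicle and 323 for the interaction. With edgeR 0 of the 10 passed for either, so that a difference between the genotypes in these responses was not shown. The summed level of the 10 genes was 12020 CPM in *Tet2*-KO vehicle mouse 1, against 2843 to 5833 CPM in the other 3 of that group, and this mouse also had the highest *Kdm6b* of the group. WT IL1β mouse 1 likewise had the highest sum of its group (8603 CPM against 4513 to 4650), but the lowest *Kdm6b* (88.8 CPM). *Tet2*-KO IL1β mouse 2 had the highest sum of its group (11492 CPM) and the third of 4 values of *Kdm6b* (163 CPM). Their part in the *Kdm6b* values was not tested.

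*Kdm6b* also had higher mean values with IL1β in MPP-like and MegP-like cells, where edgeR called only the rise in MPP-like cells of *Tet2*-KO mice. MPP-like cells had 85.5, 36.6, 43.4 and 33.8 TMM-scaled CPM in WT vehicle and 84.2, 107, 130 and 210 in WT IL1β mice, a log2 fold change of 1.27 (SE 0.40, adjusted p = 0.0582) that passed in 5 of 16 fits without 1 mouse (1.26 to 1.64), those without WT vehicle mouse 1, WT IL1β mouse 1 or *Tet2*-KO vehicle mouse 1, 3 or 4. In *Tet2*-KO they had 135, 35.5, 30.5 and 36.7 with vehicle and 192, 165, 185 and 91.9 with IL1β, a rise of 1.28 (SE 0.34, adjusted p = 0.0183). The groups overlapped in *Tet2*-KO through vehicle mouse 1, without which the value was 2.20 (adjusted p = 2.16e-05), and the call was lost without vehicle mouse 3 (0.94, adjusted p = 0.11) or 4 (1.03, adjusted p = 0.11), without IL1β mouse 2 (1.23, adjusted p = 0.0557) or 3 (1.17, adjusted p = 0.0631), and with DESeq2 (adjusted p = 0.0839). Of the 20 marker lists, 4 did not overlap in MPP-like cells of *Tet2*-KO mice, each higher with IL1β, those of MPP-like (2271 to 3027 and 3110 to 3630 CPM), GranP-like (795 to 939 and 955 to 1269), basophil-like (17.7 to 249 and 277 to 474) and MEP-like cells (highest vehicle and lowest IL1β mouse both at about 270 CPM). In WT the 1 such list was that of plasmacytoid dendritic cells, which was lower with IL1β (128 to 205 and 13.7 to 57.1 CPM). The part of these in the rise was not tested. In MegP-like cells the log2 fold change was 1.28 (SE 0.50, adjusted p = 0.202) in WT and 1.89 (SE 0.45, adjusted p = 0.0663) in *Tet2*-KO, where vehicle mice had 10.7 to 20.0 and IL1β mice 26.1 to 134 CPM. That value passed without *Tet2*-KO IL1β mouse 2 (2.31, adjusted p = 0.00499), without WT IL1β mouse 1 (1.90, adjusted p = 0.0462) or 2 (1.90, adjusted p = 0.0419) and with DESeq2 (2.06, adjusted p = 0.00609).

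Averaged over the genotypes and tested by exact permutation of the treatment labels within genotype (two-sided), the response of *Kdm6b* was 1.43 in HSC-like (p = 0.000408, adjusted p = 0.00449), 1.53 in MPP-like (adjusted p = 0.00748) and 1.62 in MegP-like cells (adjusted p = 0.00449) on the log2(CPM + 1) scale. This p of 0.000408 is the smallest that the permutations can give. Run only for genes that edgeR had called in the same mice, the test gives no independent support. It was adjusted over the classes of *Kdm6b* alone, and no share of all genes stands beside it. Mice and not pools were permuted, and the reference class, HSC-like, was itself called by edgeR. The other 8 classes tested did not pass, and their responses ran from -0.08 to 0.67. The response in HSC-like cells was larger than in 6 classes when the difference itself was tested within mice. These were GranP-like (by 1.30, adjusted p = 0.00816), neutrophil-like (1.36, adjusted p = 0.0098), basophil-like (1.18, adjusted p = 0.0098), CFU-E-like (1.11, adjusted p = 0.0098), IMP-like (1.11, adjusted p = 0.0098) and monocyte-like cells (1.32, adjusted p = 0.019). It did not pass against MEP-like (0.76, adjusted p = 0.0816), monocyte progenitor-like, MPP-like or MegP-like cells.

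*Suz12* rose modestly and in many classes. Its fitted log2 fold change with IL1β was positive in 15 of 15 classes in WT and in 14 of 15 in *Tet2*-KO, with medians of 0.38 and 0.33. In IMP-like cells it stood at 131, 116, 138 and 128 TMM-scaled CPM in WT vehicle mice and at 154, 162, 188 and 175 in WT IL1β mice. The *Tet2*-KO mice had 132, 129, 120 and 120 with vehicle and 153, 166, 154 and 156 with IL1β. Every IL1β mouse was above every vehicle mouse of either genotype, with rises of 1.31-fold in WT (log2 0.38, SE 0.08, adjusted p = 0.00153) and 1.26-fold in *Tet2*-KO (0.33, SE 0.08, adjusted p = 0.00276).

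CFU-E-like cells gave the same picture, with 162 to 191 TMM-scaled CPM in WT vehicle and 214 to 255 in WT IL1β mice (log2 0.39, SE 0.08, adjusted p = 0.00216). *Tet2*-KO mice had 154 to 195 with vehicle and 219 to 249 with IL1β (log2 0.47, SE 0.08, adjusted p = 0.00129), so that no vehicle mouse reached an IL1β mouse. In this gate 2 of 20 marker lists did not overlap in WT, that of macrophage-like cells (0 to 0.566 CPM with vehicle and 2.13 to 2.89 with IL1β) and that of MEP-like cells (443 to 471 and 407 to 433), and 0 in *Tet2*-KO, and their part in the rise was not tested. In GranP-like cells the rise was 0.34 (SE 0.10, adjusted p = 0.0157) in WT, where the groups overlapped at 124 and 125 CPM, and 0.33 (SE 0.09, adjusted p = 0.00866) in *Tet2*-KO. The WT call there was lost without WT IL1β mouse 3 (0.27, adjusted p = 0.0752) or WT vehicle mouse 1 (0.31, adjusted p = 0.0572). The exact permutation test of the response within genotype was run only for *Kdm6b*, *Suz12* and *Ezh1*, which edgeR had called in the same mice. It was adjusted over the classes of each gene alone, and no share of all genes stands beside it. In it the response of *Suz12* passed in 12 of 15 classes, HSC-like cells included (0.45, adjusted p = 0.0253), where edgeR did not call it. In none of the 14 others did the response differ from IMP-like cells past the threshold (smallest adjusted p = 0.478).

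*Ezh1* rose in the myeloid progenitor gates. In IMP-like cells *Ezh1* stood at 14.7, 14.7, 15.5 and 12.7 TMM-scaled CPM in WT vehicle and at 19.1, 20.2, 18.0 and 17.5 in WT IL1β mice. In *Tet2*-KO it stood at 13.9, 12.2, 10.8 and 10.8 with vehicle and at 15.1, 19.8, 17.7 and 16.9 with IL1β. The groups did not overlap in either genotype, and the rises were 1.31-fold (log2 0.39, SE 0.13, adjusted p = 0.0379) and 1.48-fold (log2 0.56, SE 0.13, adjusted p = 0.00223). In GranP-like cells *Ezh1* rose 1.69-fold in *Tet2*-KO (log2 0.76, SE 0.14, adjusted p = 0.00037), from 7.82 to 10.5 CPM with vehicle to 14.1 to 18.4 with IL1β. In WT GranP-like cells *Ezh1* did not pass with edgeR, and its mean difference with IL1β was 0.41 on the log2(CPM + 1) scale. Both *Tet2*-KO calls held in all fits without 1 mouse. In the GranP-like gate 9 of 20 marker lists did not overlap between vehicle and IL1β mice in WT and 6 in *Tet2*-KO, the gate's own markers among them (26223 to 28174 and 16338 to 20490 CPM in WT, 27852 to 31512 and 19739 to 25024 in *Tet2*-KO). In the IMP-like gate these were 3 lists in WT and 2 in *Tet2*-KO, and their part in the *Ezh1* and *Suz12* values was not tested.

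The WT call of *Ezh1* in IMP-like cells was less firm. It was lost without WT vehicle mouse 4 (0.31, adjusted p = 0.153), without WT vehicle mouse 1 (0.40, adjusted p = 0.0784), without WT IL1β mouse 1 (0.37, adjusted p = 0.075), 2 (0.37, adjusted p = 0.0692) or 3 (0.43, adjusted p = 0.0509) with hashtags divided at 2 centres (0.23, adjusted p = 0.164) and with DESeq2 (0.39, adjusted p = 0.106). With the replicate block it was 0.36 (adjusted p = 0.0503).

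*Ezh2* in IMP-like cells went down in the same *Tet2*-KO mice, from 178, 188, 187 and 191 TMM-scaled CPM with vehicle to 171, 154, 153 and 169 with IL1β. This was a fall by 0.20 on the log2 scale (SE 0.07, adjusted p = 0.0242) with no overlap. *Eed* went from 48.5, 45.0, 54.6 and 51.8 to 40.0, 40.5, 45.4 and 44.3 CPM, a fall by 0.24 (SE 0.09, adjusted p = 0.046) with the highest IL1β mouse just above the lowest vehicle mouse. In WT *Ezh2* stood at 203, 201, 197 and 185 with vehicle and at 172, 169, 175 and 172 with IL1β, without overlap, but the difference missed the threshold (-0.19, SE 0.07, adjusted p = 0.052). The *Ezh2* call was lost without *Tet2*-KO IL1β mouse 2 (-0.18, adjusted p = 0.0676) or 3 (-0.18, adjusted p = 0.0854) and without vehicle mouse 3 (-0.20, adjusted p = 0.0505) or 4 (-0.19, adjusted p = 0.0645). The *Eed* call was lost in 10 of 16 fits without 1 mouse (-0.26 to -0.20), those without *Tet2*-KO IL1β mouse 1, 2 or 4, *Tet2*-KO vehicle mouse 1, 3 or 4, WT IL1β mouse 2, 3 or 4 or WT vehicle mouse 4, and with DESeq2 (adjusted p = 0.079).

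**Figure D5:**
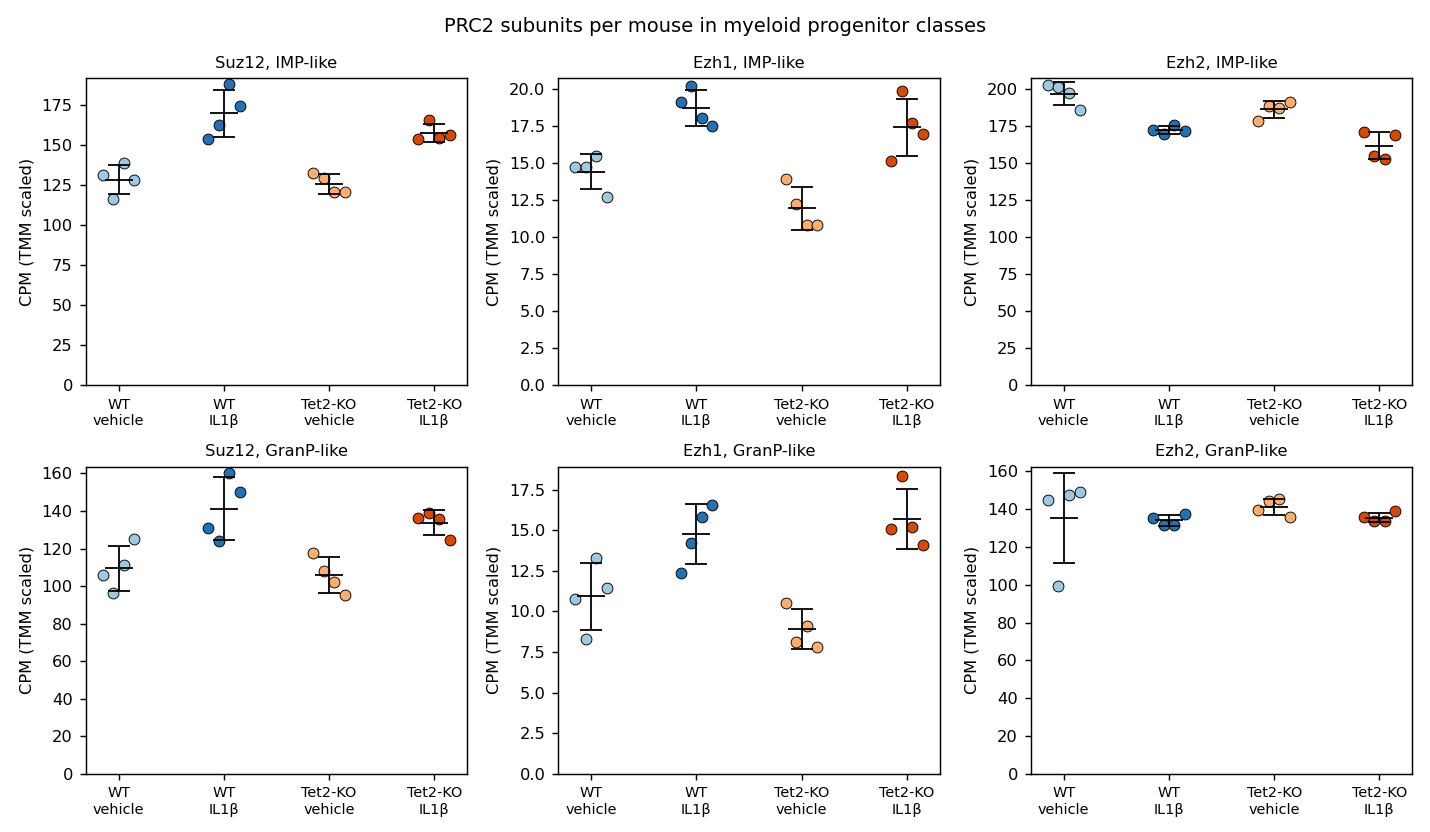
*Suz12*, *Ezh1* and *Ezh2* in TMM-scaled CPM per mouse in IMP-like and GranP-like cells, with 1 point per mouse and the mean ± SD of 4 mice in black. In IMP-like cells the IL1β mice lie above the vehicle mice for *Suz12* (153 to 188 against 116 to 138) and *Ezh1* (15.1 to 20.2 against 10.8 to 15.5), within each genotype without overlap.

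Because the difference of log2 *Ezh2* and log2 *Ezh1* within a mouse cancels the scaling, it was tested over both genotypes by exact permutation of treatment within genotype. Mice and not pools were permuted here too. In this exact permutation test the difference fell with IL1β by 0.62 in IMP-like and by 0.60 in GranP-like cells (p = 0.000408 for both, the smallest possible, adjusted p = 0.00306). In IMP-like cells the means were 3.68 ± 0.07 and 3.14 ± 0.11 (SD, n = 4) in WT vehicle and IL1β mice and 3.85 ± 0.20 and 3.15 ± 0.23 in *Tet2*-KO. In GranP-like cells they were 3.50 ± 0.12 and 3.11 ± 0.17 in WT and 3.84 ± 0.17 and 3.04 ± 0.17 in *Tet2*-KO. The other 13 classes did not pass, and with hashtags called by a 2-fold ratio these 2 did not pass either. That call left only 139 cells of *Tet2*-KO vehicle mouse 1 and 216 of WT vehicle mouse 1 over all classes. The summed cycling genes overlapped between vehicle and IL1β mice in IMP-like cells in both genotypes (1732 to 2299 and 1877 to 2385 CPM in WT, 1589 to 2221 and 1535 to 2001 CPM in *Tet2*-KO), and the part of cycling in the fall was not tested. The 5 plasma cell markers in this gate did not overlap in WT, with sums of 111 to 144 CPM in vehicle and 196 to 711 CPM in IL1β mice, and overlapped in *Tet2*-KO (136 to 245 and 156 to 367 CPM). Plasma cell-like cells had the lowest balance of all classes, 1.33, and the part of these markers was not tested.

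NK/T cell-like cells, 629 in 14 mice, held the largest called changes of *Suz12* and *Ezh2*. *Suz12* stood at 305, 156 and 123 TMM-scaled CPM in the 3 WT vehicle mice and at 309, 442 and 401 in the 3 WT IL1β mice, a rise of 2.48-fold (log2 1.31, SE 0.32, adjusted p = 0.0151). The lowest IL1β mouse was just above the highest vehicle mouse, which had 11 NK/T cell-like cells and 6 UMIs of the gene. *Ezh2* stood at 257, 312 and 328 CPM in these WT IL1β mice and at 101, 171, 148 and 91.7 in the *Tet2*-KO IL1β mice. *Tet2*-KO mice were thus lower by 1.22 on the log2 scale (SE 0.28, adjusted p = 0.0196), the only member pair of 109 that differed between genotypes with IL1β, beside 0.185% of all pairs.

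The same WT IL1β mice stood apart in other genes of this class. Their cycling genes summed to 2880 to 5790 CPM, against 1323 to 2442 CPM in WT vehicle and 704 to 2454 CPM in *Tet2*-KO IL1β mice, without overlap, and 1683 to 4518 CPM in *Tet2*-KO vehicle mice. The class's own 6 markers summed to 4294 to 6069 CPM in them and to 7123 to 9906 CPM in the mice of the other groups. Of 20 marker lists, 4 did not overlap between vehicle and IL1β mice in WT and 3 in *Tet2*-KO. In WT the class's own, MPP-like and plasmacytoid dendritic cell-like lists were lower with IL1β and the plasma cell-like list was higher. The part of these lists and of the cycling genes in the *Ezh2* and *Suz12* values was not tested. The *Ezh2* call was lost without *Tet2*-KO IL1β mouse 1 (-1.08, adjusted p = 0.0648) or 4 (-1.08, adjusted p = 0.0504) and without WT IL1β mouse 3 (-1.21, adjusted p = 0.138) or 4 (-1.15, adjusted p = 0.139), and the *Suz12* call without WT IL1β mouse 3 (1.20, adjusted p = 0.123) or 4 (1.31, adjusted p = 0.0759) or WT vehicle mouse 3 (1.25, adjusted p = 0.121) or 4 (1.10, adjusted p = 0.142). Without the low-count filter neither passed (adjusted p = 0.1 and 0.112), nor with pools as replicates (adjusted p = 0.0706 and 0.169).

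Of the H2A ubiquitin members, *Bap1* alone passed with IL1β, in 1 class of WT mice. *Bap1* rose in WT GranP-like cells from 20.1, 13.3, 22.8 and 20.9 TMM-scaled CPM to 26.9, 25.7, 25.0 and 28.9, without overlap (log2 0.36, SE 0.12, adjusted p = 0.0339), and stood at 21.3 to 22.6 and 22.4 to 26.6 CPM in *Tet2*-KO, which did not pass. This call was lost without WT IL1β mouse 1 (0.34, adjusted p = 0.0807) or 4 (0.33, adjusted p = 0.0588), without WT vehicle mouse 1 (0.34, adjusted p = 0.0849), 2 (0.30, adjusted p = 0.0601) or 4 (0.37, adjusted p = 0.0688) and with DESeq2 (adjusted p = 0.0891). In the WT GranP-like gate 9 of 20 marker lists did not overlap, the gate's own among them, and their part in the *Bap1* rise was not tested. Over the 12 classes tested the log2 fold change of *Bap1* ran from -0.28 to 0.41 in WT and from -0.96 to 0.47 in *Tet2*-KO. *Asxl1* had a positive log2 fold change in 12 of 12 classes in WT and 11 of 12 in *Tet2*-KO, between -0.36 and 0.53, and no class passed. *Asxl2* (15 classes tested, -0.30 to 0.75 over both genotypes) and *Bmi1* (9 classes, -0.19 to 0.72) passed in no class.

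None of the 9 genes passed between genotypes with vehicle. Of 109 pairs 0 passed for *Tet2*-KO against WT with vehicle, and 0 with DESeq2, beside 0.0368% of all pairs and 0.0% of genes in HSC-like cells. At an unadjusted p under 0.05 there were also 0, beside 4512 of all 100635 pairs. *Kdm6b* in HSC-like cells was 0.39 higher on the log2 scale in *Tet2*-KO with vehicle (SE 0.34, adjusted p = 1.00) and 0.49 higher with IL1β (SE 0.26, unadjusted p = 0.0714, adjusted p = 0.829), and the mice of the genotypes overlapped in both. The value with vehicle ran from 0.018 without *Tet2*-KO vehicle mouse 1 to 0.62 without *Tet2*-KO vehicle mouse 3 and was 0.13 without WT vehicle mouse 4, and that with IL1β ran from 0.22 without WT IL1β mouse 1 to 0.68. With IL1β, 8 member pairs had an unadjusted p under 0.05, beside 7682 of all 100635 pairs. After adjustment 1 passed, the NK/T pair above, while 0.0% of genes in HSC-like cells passed. For the interaction, the difference of the IL1β responses of the genotypes, 0 of 109 pairs passed with edgeR and with DESeq2. This stood beside 0.0149% of all pairs and 0.0125% of genes in HSC-like cells. An unadjusted p under 0.05 was found for 4 member pairs and for 4218 of all 100635 pairs. The smallest interaction p was that of *Ezh2* in NK/T cell-like cells (edgeR, -1.60, adjusted p = 0.0826).

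Of 42 other genes of the pathway that were counted, 41 passed the low-count filter in at least 1 class, in 426 pairs. With IL1β 25 pairs rose and 6 fell in WT (7.28%), beside 10.5% of all pairs. In *Tet2*-KO 38 rose and 13 fell (12.0%), beside 12.3% of all pairs. With edgeR 0 passed for *Tet2*-KO against WT with vehicle (15 at an unadjusted p under 0.05), with IL1β (23) or for the interaction (16). Over all 100635 pairs, 4512, 7682 and 4218 had such an unadjusted p, in the same order. By role, the 7 PRC2 core and accessory genes had 10 rises and 1 fall in 83 pairs in WT (13.3%) and 13 and 1 in *Tet2*-KO (16.9%). The 22 PRC1 genes had 6 rises and 3 falls in 200 pairs in WT (4.5%) and 10 and 9 in *Tet2*-KO (9.5%). The BAP1 and deubiquitinase genes had 6 and 2 of 99 pairs in WT (8.08%) and 11 and 3 in *Tet2*-KO (14.1%). The demethylation and acetylation genes *Kdm6a*, *Crebbp* and *Ep300* had 3 rises of 44 pairs in WT (6.82%) and 4 in *Tet2*-KO (9.09%), with no fall. Rises alone were 4.38% of all pairs of a gene and a class in WT and 5.46% in *Tet2*-KO.

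In WT 0 of the 35 genes of this list tested in HSC-like cells passed, beside 7.03% of all genes. An unadjusted p under 0.05 was found for 5 of the 35, beside 1734 of all 8021 genes in these cells. The 6 largest changes that passed in other classes were all rises. *Cbx7*, the PRC1 subunit that binds methylated H3K27, rose in MPP-like (log2 1.91, SE 0.56, adjusted p = 0.0409) and IMP-like cells (0.99, SE 0.25, adjusted p = 0.00555). *Aebp2*, an accessory subunit of PRC2, rose in NK/T cell-like (1.78, SE 0.48, adjusted p = 0.0273) and MPP-like cells (0.85, SE 0.22, adjusted p = 0.0191), and *Hcfc1* (1.83) and *Rbbp7* (1.32) rose in NK/T cell-like cells. The NK/T values rest on the same 3 WT IL1β mice whose cycling genes and class markers stood apart, and the part of these was not tested here either. In *Tet2*-KO 5 of the 35 genes tested (14.3%) passed in HSC-like cells, beside 12.1% of all genes. *Mtf2* (0.66, SE 0.16, adjusted p = 0.00622) and *Aebp2* (0.58, SE 0.19, adjusted p = 0.046), both of PRC2, rose together with *Mbd6* (0.70) and *Pcgf5* (0.55), and *Pcgf6*, which belongs to a variant PRC1, fell by 1.05 (SE 0.34, adjusted p = 0.0413). *Cbx7* rose by 0.94 in GranP-like cells of these mice.

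The genes whose levels across the 15 classes were most like those of a member, by Pearson r of mean log2(CPM + 1) in WT vehicle mice among 9132 genes, were listed for *Kdm6b*, *Ezh1* and *Ezh2*. *Ezh2* ran with *Xpo1*, *Nup155*, *U2surp*, *Rfc5* and *Bub1* (r = 0.97 to 0.98). *Kdm6b* ran with *Samsn1*, *Timp2*, *Il18rap*, *Ddx60* and *Msl1* (r = 0.80 to 0.85), and *Ezh1* with *Cdc42se1*, *Metrnl*, *Epsti1* and *Xiap*, among others (r = 0.83 to 0.86). The points are classes of the same 4 mice and share library and depth, so these values describe the order of classes and no more.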

How the data were processed

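Single-cell RNA libraries (10x 3′) of Lin- marrow were made by the authors with Cell Ranger 3.1.0 on mm10, as the submitters' processing notes name it, and deposited as UMI counts per gene and barcode without normalization. Hashtag counts were deposited in the same way. The 9 members, the gene lists and the markers were chosen with earlier results of these data known.

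Barcodes with under 750 genes or over 10% mitochondrial UMIs were removed. Mice were called with HTODemux (Seurat 5.3.0), and 3938 doublets and 33083 cells without a call were left out. Doublets of 1 mouse were not called and were kept. An alternative left out the 5% of cells with most UMIs in each library and class, which is a cut on depth. A class needed UMIs of at least 2 of its markers and a score 0.05 above the next class. For HSC-like and MPP-like cells the next class was the best one outside this pair. A cell that scored best in either was HSC-like if it had UMIs of at least 2 HSC-like markers, and MPP-like otherwise. The split of the pair thus rests on detection of these markers, which can follow the depth of a cell. UMIs were summed per mouse and class (at least 10 cells, at least 3 mice per group). Genes kept by filterByExpr were tested with edgeR 4.0.16 (R 4.3.3, TMM, quasi-likelihood, 4 groups in 1 fit per class), and p-values were adjusted by Benjamini-Hochberg within each class. DESeq2 1.42.0 was an alternative. CPM is computed on the UMIs of the class, plain or TMM-scaled as stated. The p-values measure spread between mice, and each mouse within a pool was recovered by hashtag alone. All 9 members are named in each comparison, and of the pathway list up to 6 calls per contrast by size, HSC-like cells first. Fits were tested on simulated data. Overlapping genes (*Kdm6bos* opposite *Kdm6b*, *Gm45120* on the strand of *Eed*, *Gm26563* opposite *Suz12*) could share reads. Pool numbers did not pair the groups (correlation of pool differences -0.14 to 0.17). Of the genes most like a member across classes, 1 is not reported here.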

Additional observations from a re-analysis of the deposited data

Results flagged for a closer look

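In MPP-like cells, *Tet2*-KO vehicle mouse 1 had 135 TMM-scaled CPM of *Kdm6b*, far from the other 3 mice of its group, which had 30.5 to 36.7. Of 48 groups of 4 mice tested in this way it was the 1 found, and chance alone marks about 1 in 20 such groups, a larger share than 1 of 48. This mouse also had 10862 CPM of the 10 immediate early genes in these cells, against 2877 to 6085 CPM in the other 3. WT IL1β mouse 1 had the highest such sum of its own group (8044 CPM against 3390 to 3806) with the lowest *Kdm6b* (84.2 CPM). The part of that in its *Kdm6b* value was not tested.

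The IL1β response of *Kdm6b* (log2(CPM + 1), both genotypes) differed between classes of the same mice. Both the gene and the reference class, HSC-like, had been called by edgeR in these mice. HSC-like cells exceeded CFU-E-like cells by 1.11, basophil-like cells by 1.18, GranP-like cells by 1.30, IMP-like cells by 1.11, monocyte-like cells by 1.32 and neutrophil-like cells by 1.36, each by an exact permutation test of the difference with an adjusted p of 0.00816 to 0.019.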

How the results depend on the processing

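The alternatives of hashtags divided at 2 centres, sex as a covariate, no TMM, and all those of the *Kdm6b* response by class and of the balance with IL1β were chosen after seeing the data. Among member pairs called with IL1β, 9 in *Tet2*-KO became 14 without TMM and 4 with pools as replicates, and 6 to 11 without 1 mouse, where 7.58 to 13.1% of all pairs passed. The 7 in WT became 13 (11.5%) with hashtags divided at 2 centres, beside 14.8% of all pairs, 16 without TMM and 2 with pools, and 3 to 9 without 1 mouse (3 without WT vehicle mouse 4), where 5.97 to 10.5% of all pairs passed. The 1 pair called between genotypes with IL1β became 0 without the low-count filter, 0 with pools and 0 to 1 without 1 mouse. The 0 pairs for genotype with vehicle and for the interaction stayed at 0 in all settings run. With the replicate block of pool number, counts were 8 in WT and 9 in *Tet2*-KO. Among the 24 single values followed, it ended 1 call, *Ezh1* in WT IMP-like cells, and made 1, *Kdm6b* in WT MPP-like cells (1.19, adjusted p = 0.0496), and changed no other. The 5 neighbouring steps became 14 with either other hashtag call, 0 in WT vehicle mice alone and 4 to 11 without 1 mouse (11 without WT vehicle mouse 2). The 32 cycling calls became 0 in WT vehicle mice alone and 26 to 36 without 1 mouse. For the steps and the cycling calls alike, the 0 in WT vehicle mice was fixed in advance. With 4 mice the exact sign-flip test cannot go below p = 0.125. The 6 classes with a smaller *Kdm6b* response than HSC-like cells were 6 to 8 without 1 mouse, and the 2 classes with a lower *Ezh2* to *Ezh1* balance became 0 with a 2-fold hashtag ratio and stayed 2 without any 1 mouse. The 2-fold ratio, also used for the neighbouring steps, left 139 cells of *Tet2*-KO vehicle mouse 1 and 216 of WT vehicle mouse 1. Under it 45.4% of the cells of WT vehicle mouse 2 with a sex-linked UMI were of the other sex. The interaction of *Kdm6b* in HSC-like cells ran from -0.17 to 0.48 without 1 mouse, changed sign in 5 of these fits (-0.04 and -0.02 without *Tet2*-KO IL1β mouse 1 and 3, -0.14 without *Tet2*-KO vehicle mouse 3, -0.17 without WT IL1β mouse 1 and -0.05 without WT vehicle mouse 1) and was -0.062 without the 5% of cells with most UMIs. Over 24 single values, 522 of 624 results kept their direction and side of the threshold, 76 fell below it, 20 rose above it and 6 changed sign. The causes were not tested. With 3 to 26 UMIs behind some values, a small change in single classes was not detectable.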
